A study of Mus musculus with 19 samples.

Results

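The donor plasmids of this study carried a DNA barcode (BC), a stretch of 20 nt of random sequence next to the GFP gene that marks each integrated copy of the transgene. The BCs of the 19 amplicon sequencing libraries fell into 2 kinds by base composition. In the 5 mESC and 9 PWK × B6 libraries the BCs with at least 1% of the reads, called main BCs here, were rich in G and T, whereas in the 3 F1 and 2 B6J F0 libraries the main BCs were balanced. The sequences described here had the composition of the other kind. They were chosen by their G plus T share and length alone: 20 nt sequences with a share under 65% (at most 12 of 20 bases) in the G/T-rich libraries, and 20 nt sequences with a share of 80% or more (at least 16 of 20 bases) in the balanced libraries. This gave 210 different sequences of 837 in all libraries, namely 194 balanced sequences of 637 in the G/T-rich libraries and 16 G/T-rich sequences of 203 in the balanced libraries. Only sequences of 20 nt could qualify, which were 612 of the 837, 435 of the 637 and 180 of the 203. The base composition is therefore what selected these sequences and is not a finding about them, and their identity to main BCs is given as a count with no test.

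All 19 libraries were made from genomic DNA of mice or cells with the BC-linked GFP transgene, 1 library per sample, so no sample has a technical replicate and no library without the transgene is among them. The mESC samples were the lines #6–10 and #13–25, which are embryonic stem cells from the inner cell mass of Tg blastocysts, each grown from 1 picked colony, and mixtures of the DNA of both lines at 1:1, 1:3 and 1:7. The PWK × B6 samples (spelled PKW-B6 in the labels) were 9 founder (F0) embryos at E11.5 from B6 oocytes fertilized with PWK sperm, electroporated with mPBase mRNA and injected with the donor plasmid. The B6J F0 embryos #8 and #9 were E11.5 founders from B6J eggs given the same transposase mRNA and donor DNA, and the F1 embryos #1 to #3, also at E11.5, had inherited their integrations from a Tg parent. The methods describe 1 donor plasmid library and name no pools of different composition. Which libraries were sequenced in the same run, or shared an index sequence, is not given in the sources used here.

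In *piggyBac* transgenesis, the transposase cuts the cassette between its inverted terminal repeats out of the plasmid and inserts it into the genome, and every inserted copy keeps the BC of the plasmid molecule it came from. A BC that was truly integrated in many cells is read very often in the DNA of that embryo, and amplicon sequencing also yields sequences with few reads. Because the letters are random, an exact match over the whole BC is what tells that separate libraries hold the same BC.

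The main BCs of the 2 kinds differed in mean composition and overlapped at 14 and 15 G or T bases. The main BCs of the G/T-rich libraries had 14 to 20 G or T bases among the 49 of 20 nt, with a mean of 86.1% G plus T, and those of the balanced libraries had 4 to 15, with a mean of 52.8% over 44 BCs. The most abundant main BCs of 2 PWK × B6 embryos and 2 F1 embryos follow so that the composition can be seen, with A and C in capitals in every sequence.
PWK × B6 embryo #1, 93640 reads: tgggtgtttAgggtgtttAt
PWK × B6 embryo #3, 205071 reads: gtgCCCttttttgtgttttg
F1 embryo #1, 124606 reads: ggCAAggCttAgCAttACtA
F1 embryo #2, 135066 reads: CACgtgCtCCCtgCttgggA

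The balanced sequences that led a PWK × B6 library, or were among the 5 with the most reads over all embryos, are shown next, because they turned out to recur in particular embryos. Capitals again mark A and C.
embryos #1, #5 and #9: CAtAAttCCACgtgAttAAt
embryos #1, #5 and #9: gtgCCgACttgCtttACAtt
embryos #1, #5 and #9: ggtACCAgtAAAAtCtgtgA
embryos #2 and #6, with 1 or 2 reads in 4 others: CtggttgACtgttCttAACC
embryos #3 and #7, with 2 reads in #5: CAtgCgtCgCtttAAAgttg
embryos #3 and #7: AgAAtCgtAttCttCCtCAt
embryos #4 and #8: gtCgAgAggAAggCttgCCt

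Of the 16 G/T-rich sequences in the balanced libraries, the 10 with the most reads are shown in the order of their reads over all 5 libraries, since the other 6 had few reads. The 2 that were identical to a main BC of the G/T-rich libraries are named as such.
identical to a main BC of PWK × B6 embryo #1: ttttgggAtttgtttgtggt
no identical main BC, F1 #2: gtgtttttCtttgttggtgg
no identical main BC, F1 #1, #2 and #3: gggtCgCttgttgtttttgg
no identical main BC, F1 #1 and #2: tgtgtgCCtAgttgttgttt
no identical main BC, F1 #2, F1 #3 and F0 #9: tggttAtCtttttCgttgAt
no identical main BC, F1 #2, F1 #3, F0 #8 and F0 #9: ttggtCtggttCtttgtgtt
no identical main BC, F1 #3 and F0 #9: tgtggtgtAggttttttttg
no identical main BC, F1 #2 and #3: tttgtCttgggtttAtCgCt
no identical main BC, F1 #1, F1 #3 and F0 #8: tgtgggttCgtAtttttgtt
identical to a main BC of mESC line #13–25: gttggttttAgttttAgAgt

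Balanced sequences were found in every PWK × B6 embryo and in both unmixed mESC lines, always as a small part of the library. The 9 PWK × B6 libraries held 12 to 53 of them, with a median of 33, and together 171 different sequences. Their reads ran from 65 in embryo #8 to 219 in embryo #5, with a median of 160, out of 109552 to 275456 reads per library. No embryo lay apart from the others in number or reads by Dixon's criterion. In line #6–10, 20 sequences had 29 of 132820 reads, and in line #13–25, 7 had 10 of 130738. The mESC sequences were read very little: 20 of the 27 occurrences were single reads and the highest had 4 reads, so their letters are not shown. In each of the 3 mixtures, 0 balanced sequences were found, and no 20 nt sequence there had fewer than 14 G or T bases. The mixtures held few 20 nt sequences that could qualify. These were 33 of 90 sequences at 1:1, 35 of 129 at 1:3 and 42 of 133 at 1:7, against 126 of 126 in each line. The counts of 0 are therefore not directly comparable with the lines. The count of 0 allows a share of up to 0.00282% at 1:1, 0.000697% at 1:3 and 0.000618% at 1:7. Limits and intervals cover counting error only, as the reads carry no molecular identifiers.

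As a share of all reads, balanced sequences ranged from 0.0572% in PWK × B6 embryo #9 (95% Wilson interval 0.0485% to 0.0673%) to 0.107% in embryo #6 (0.0934% to 0.123%). In the mESC lines the shares were 0.0218% (0.0152% to 0.0314%) and 0.00765% (0.00415% to 0.0141%). All 9 embryos lay above both lines. The means were 0.0774% ± 0.0193 (SD, n = 9) and 0.0147% ± 0.0100 (SD, n = 2), a ratio of 5.25, and the difference passed a two-sided exact permutation test with p = 0.0182, the smallest value that 55 splits allow. This held for the share of all reads and not for the share of the reads outside the main BCs, where the difference of the means, embryos minus lines, was -1.81 percentage points (two-sided exact permutation p = 0.655). The test treats the 9 embryos as independent, whereas embryos shared many of these sequences in sets (described further on), so that its p may be too small. With either line left out, 10 splits remain and the smallest p is 0.1. None of the 23 balanced sequences of the mESC lines was found in a PWK × B6 library, where 12.8% of all 179 of the 20 nt sequences under 1% of reads in the lines were, and 4 were found in both lines, where 37.4% of the 179 were.

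In rank and reads, the balanced sequences stayed far below the main BCs. The highest in any PWK × B6 embryo was at rank 9, in embryo #6, and the others led at ranks 10 to 19. The most reads of a balanced sequence were 79 in embryo #6, 63 in #2, 34 in #7, 27 in #3, 24 in #1, 22 in #5, 19 in #9, 17 in #4 and 12 in #8. The median reads per balanced sequence were 2 in 6 of these libraries, 3.5 in #6, 7.5 in #7 and 10 in #3. They were 8 to 18 edits away from the nearest main BC of the libraries that held them, where an edit is an inserted, deleted or substituted base. The limit of 12 G or T bases and the grouping of similar sequences by the authors both bear on this distance, so it is a description only.

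The PWK × B6 embryos did not share these sequences evenly. Of the 171 balanced sequences, 80 were found in 1 embryo and 91 in 2 or more. The embryos fell into 4 sets by the sequences they shared, namely #1, #5 and #9, then #2 and #6, then #3 and #7, and lastly #4 and #8. Within each set the embryo numbers of the labels differ by 4 or 8. Of the 91 recurring sequences, 83, or 91.2%, were found only in embryos of 1 set, and the remaining 8 crossed sets. By reads the split was less complete: the 83 had 927 reads and the 8 had 316, with both of the most-read balanced sequences among the 8. The sets were read from these sequences and from nothing else, so the counts describe the pattern, and no test of it was made.

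The 6 pairs of embryos within a set shared 8 to 34 balanced sequences, and the 30 pairs across sets shared 0 to 3, with 8 pairs at 0, so that the ranges do not overlap. Embryos #1 and #5 shared 34, which is 70.8% of the 48 sequences of #1 and 64.2% of the 53 of #5. Embryos #5 and #9 shared 29, and #1 and #9 shared 27, 73.0% of the 37 sequences of #9. In embryos #2 and #6, 23 were shared, 69.7% and 76.7% of their lists. The pair #3 and #7 shared 8, which is 66.7% and 57.1% of lists of only 12 and 14. As a share of a list, the lowest overlap within a set was that of #4 and #8, which shared 13, 30.2% of the 43 sequences of #4 and 52.0% of the 25 of #8. The shared sequences held 60.8% to 93.6% of the balanced reads of each library in these 6 pairs. The typical difference in reads was small. Per occurrence, the median was 3 reads for sequences in 2 or more embryos and 2 for those in 1 embryo. Of the 215 occurrences of recurring sequences, 71 had 5 reads or more. Over all 9 embryos, recurring sequences held 88.5% of the 1404 balanced reads, while a sequence found in 1 embryo had at most 8 reads.

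The values of these sequences were as follows. CAtAAttCCACgtgAttAAt had 24 reads in embryo #1, 14 in #5 and 18 in #9, and was absent from the other 6 embryos. gtgCCgACttgCtttACAtt had 11, 19 and 19 reads in the same embryos, and ggtACCAgtAAAAtCtgtgA had 5, 22 and 6. All 3 were among the sequences found in every embryo of their set and nowhere else. AgAAtCgtAttCttCCtCAt had 21 reads in embryo #3 and 26 in #7, and gtCgAgAggAAggCttgCCt had 17 in embryo #4 and 12 in #8. CAtgCgtCgCtttAAAgttg had 27 reads in embryo #3, 34 in #7 and 2 in #5. Here the reads outside the set were few beside those within it. In total, 19 sequences were in all of #1, #5 and #9 and in no other embryo, 19 were in #2 and #6 only, 7 in #3 and #7 only, and 12 in #4 and #8 only.

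Of the sequences that crossed sets, CtggttgACtgttCttAACC was the most widespread, in 6 embryos, with 63 reads in #2 and 79 in #6, against 2 in #1, 2 in #4, 1 in #7 and 1 in #9. Its high values were both in 1 set. By contrast AttCgCCAAttgggCgCttA had 6, 7 and 8 reads in #1, #5 and #9 and also 5 in #6, of another set. Here the value outside the set was only just below those within it. ggCACtgCAACACCACgttt was in 5 embryos of 3 sets with 1 to 4 reads each. Both were chosen after their values were seen, as examples of crossing.

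Where 2 embryos shared balanced sequences, a sequence with more reads in one tended to have more in the other. Across the shared sequences of the 6 pairs within sets, Pearson's r of the reads was 0.614 to 0.986 and Spearman's rho was 0.420 to 0.660, over 8 to 34 sequences. These are descriptions across sequences of the same 2 libraries, which are not independent replicates. The highest r, that of embryos #2 and #6, came with CtggttgACtgttCttAACC, which had 63 and 79 reads where the next sequence, tCCAtCtgAggCCAgAtttA, had 12 and 15.

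The 20 nt sequences of the same libraries with 13 or more G or T bases that were also below 1% of the reads serve as a comparison. Those that were a main BC of a G/T-rich library, 48 sequences, were shared by 10 to 22 in the 30 pairs across sets and by 11 to 32 in the 6 pairs within sets, so that these ranges overlap. Another 45 were a main BC of no library. Of these, 35 had 13 to 15 G or T bases, just outside the limit, and followed the sets in part. The pairs within sets shared 0 to 5 of them, and the pairs across sets 0 or 1, with 25 of 30 at 0. An embryo held only 1 to 9 of the 35, so these counts are not comparable with those of the balanced sequences. As shares of the lists, the overlap within sets was nearer to that of the balanced sequences, though mostly lower. Embryos #1 and #9 shared 71.4% of each list, against 56.25% and 73.0% for balanced sequences. Embryos #2 and #6 shared 62.5% of each, against 69.7% and 76.7%. For #4 with #8 the share of the list of #4 was 22.2%, against 30.2%. The other 10 of the 45, with 16 or more G or T bases, were shared by no pair of embryos. An embryo held only 0 to 2 of them, so little sharing was possible. Of the 35, embryos #3 and #7, with lists of only 3 and 1, were the pair within a set that shared 0, while #3 shared 1 with #4 and 1 with #8. These counts were made after the sets had been seen and were not tested. What the embryos of a set have in common beyond these sequences is not stated in the labels and was not tested.

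Not a single balanced sequence was identical to a main BC of the F1 or B6J F0 libraries, 0 of 194, nor was any within 2 edits or identical to the reverse complement of one. The background is the same: of all 434 different 20 nt sequences under 1% of reads in the G/T-rich libraries, 0 were identical to one of the 44 main BCs of the other libraries, which is 0%. The nearest of these main BCs was 7 to 11 edits away from each balanced sequence of the PWK × B6 embryos, with a median of 9. At any read number, 1 balanced sequence was found in a balanced library: tAtAgtCCCtgCCAACCttt had 1 read in PWK × B6 embryo #4 and 23 reads, 0.00492%, in F1 embryo #3. By single bases, the balanced sequences of the PWK × B6 embryos held 24.8% A, 25.8% C, 19.2% G and 30.2% T, against 22.4%, 24.8%, 24.0% and 28.9% in the main BCs of the balanced libraries. The rule fixes only the sum of G and T. The 23 balanced sequences of the mESC lines had 25.2% G and 25.0% T.

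In the opposite direction, the balanced libraries held few kinds of G/T-rich sequences. The median reads per sequence were 21 to 33 in the F1 libraries, and 2 and 8 in B6J F0 #8 and #9, in libraries deeper than those of the PWK × B6 embryos. The F1 embryos #1, #2 and #3 held 5, 9 and 8 of them with 282, 971 and 301 reads, and the B6J F0 embryos #8 and #9 held 5 and 7 with 66 and 321 reads, out of 467646 to 665455 reads per library. F1 #2 was the highest and F0 #8 the lowest. In the same order these were 0.0424% (95% Wilson interval 0.0377% to 0.0476%), 0.202% (0.189% to 0.215%), 0.0644% (0.0575% to 0.0721%), 0.0123% (0.00969% to 0.0157%) and 0.0657% (0.0589% to 0.0733%) of the reads. The F1 mean was 0.103% ± 0.0863 (SD, n = 3) and the B6J F0 mean 0.0390% ± 0.0378 (SD, n = 2). The difference of 0.0638 percentage points was 0.0143 without F1 embryo #2. The groups overlapped, and a two-sided exact permutation test gave p = 0.6, where 10 splits cannot give less than 0.1. Within the reads outside the main BCs, G/T-rich sequences made up 12.2% to 44.1% in these 5 libraries, and balanced sequences made up 4.43% to 12.1% in the 9 PWK × B6 libraries.

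Of the 16 G/T-rich sequences, 2 were identical to a main BC of a G/T-rich library, where 1.17% of all 171 different 20 nt sequences under 1% of reads in the balanced libraries were. The 16 are part of those 171, and both identical sequences of the 171 are among the 16. The 2 had 488 of the 1941 reads of this kind, 25.1%, and the other 14 had 1453 reads. No other main BC of the 50 in the G/T-rich libraries appeared in a balanced library at any composition.

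The identical sequence with the most reads was ttttgggAtttgtttgtggt, a main BC of PWK × B6 embryo #1 with 55129 reads, 27.4% of that library. In the balanced libraries it was read 124 times in F1 #1, 96 times in F1 #2 and 221 times in F0 #9. F1 #3 and F0 #8 had 0 reads, which allows up to 0.000642% and 0.000560% of the reads there. Its shares of 0.0186%, 0.0199% and 0.0453% in the balanced libraries lay within the range of the other PWK × B6 embryos that held it, from 0.00309% in #4 to 0.0917% in #3. Embryos #7 and #8 and every mESC library had 0 reads of it. The other identical sequence, gttggttttAgttttAgAgt, was at rank 2 in mESC line #13–25 with 18980 reads, 14.5%, and was carried by all mixtures, with 3331, 4480 and 2291 reads at 1:1, 1:3 and 1:7. The 3 F1 embryos had 33, 7 and 7 reads of it, and both B6J F0 embryos had 0. In 7 of the 9 PWK × B6 embryos it had 6 to 43 reads, and line #6–10 had 0.

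The 14 G/T-rich sequences without an identical main BC were 4 to 7 edits from the nearest one and were found in none of the 14 G/T-rich libraries at any read number, which was the rule here, as 1.75% of all 171 of the 20 nt sequences under 1% of reads in the balanced libraries were found there. All 16 G/T-rich sequences together, the 2 identical ones included, had 57.8% T and 31.6% G, against 55.3% and 30.8% in the main BCs of the G/T-rich libraries and 28.9% and 24.0% in those of their own libraries. Their high sum of G and T was set by the rule, which leaves only its split into G and T free. Of the 14, gtgtttttCtttgttggtgg had the most reads, 401 in F1 #2 (0.0833% of the library, rank 6), and 0 in the other 4 libraries. gggtCgCttgttgtttttgg had 67, 217 and 24 reads in F1 #1, #2 and #3, and tgtgtgCCtAgttgttgttt had 25 and 210 in F1 #1 and #2. These last 2 were found in F1 embryos and in neither B6J F0 embryo. ttggtCtggttCtttgtgtt was found in 4 of the 5 libraries, at 21 and 37 reads for F1 #2 and #3 and 49 and 2 for F0 #8 and #9. tggttAtCtttttCgttgAt had 12, 48 and 66 reads in F1 #2, F1 #3 and F0 #9, and tgtggtgtAggttttttttg 90 in F1 #3 and 8 in F0 #9. The library with the most reads was thus not the same for all.

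The G/T-rich sequences also recurred between libraries. Of the 16 sequences, 11 were found in 2 or more of the 5 libraries and held 78.0% of the reads. Recurrence was not limited to them. F1 #1, #2 and #3 and F0 #8 and #9 held 27, 73, 84, 64 and 64 sequences of 20 nt, from only 180 different ones. The share of all 20 nt sequences that recurred was not counted, so the 11 are a description only. F1 #2 and F1 #3 shared 6, F1 #1 and F1 #2 shared 4, and each of the 10 pairs shared at least 1.

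Of the 14 sequences, tgtgggttCgtAtttttgtt was singled out after its letters were seen, because its start and end match 2 main BCs of the same library. Its first 12 bases are the first 12 of the BC at rank 2 of mESC line #6–10, and its last 8 are the last 8 of the BC at rank 15 of that line. In the lines that follow, capitals mark the shared bases.
sequence in F1 #1, F1 #3 and F0 #8, shared start: TGTGGGTTCGTAtttttgtt
the same, shared end: tgtgggttcgtaTTTTTGTT
line #6–10, 9131 reads: TGTGGGTTCGTAcgtgatga
line #6–10, 5800 reads: tttggggtttcgTTTTTGTT

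This sequence had 33 reads in F1 #1, 19 in F1 #3 and 11 in F0 #8. It was absent from line #6–10 itself and from the mixtures, and neither of the BCs with its start or end was found in a balanced library. For scale, the 49 main BCs of 20 nt in the G/T-rich libraries shared at most 8 first bases and at most 6 last bases with each other. Among the 14 sequences, 3 shared 10 or more first bases with a main BC, 2 of them long runs of T with the same BC of line #13–25, and the median was 5. At the other end, 2 further sequences of the 14, tgtggtgtAggttttttttg and tgtgtgCCtAgttgttgttt, shared 9 last bases with a main BC, more than the 8 of the sequence singled out. How the sequence arose was not tested.

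The numbers of sequences showed no gap at the limits of composition. In the G/T-rich libraries, 40 sequences had 12 G or T bases, just inside, with 1 to 79 reads and a median of 2, and 22 had 13, just outside, with 1 to 10 reads and a median of 2. Neither group held a main BC. CttgttgAgAtCgAAtCggt, with 10 reads in PWK × B6 embryo #5, had the most reads just outside. In the balanced libraries, 3 sequences had 16 G or T bases, with 2 to 70 reads. Of the 9 sequences with 15, main BCs made up 5 occurrences, with up to 121330 reads, and the sequence under 1% with the most reads there was tggtCtCtCgtggttgCCgg, with 44 in F1 #2.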

How the data were processed

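Genomic DNA of each sample was amplified around the BC with indexed primers and sequenced on an iSeq 100. The authors cut the BC out of each read by the 10 bp on either side, grouped similar sequences with starcode (its distance setting is not given in the sources used here) and deposited raw read counts per sequence, 1 table per library, without normalization. Rare sequences joined to a more abundant one by the grouping are thus part of its count, and 0 columns per sample were left unused. The libraries held 106286 to 665455 reads.

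From these counts, members were selected by length and G plus T, and main BCs by at least 1% of the reads in any library of the kind. Sequences were compared as identical strings and by edlib edit distance. Shares have Wilson intervals. Groups were compared in their shares of reads by exact permutation of the libraries (two-sided, difference of means, threshold 0.05). Whether the samples of a group were independent beyond being separate embryos or lines is not stated, and the numbers in the labels name embryos. The members and the alternatives were chosen with earlier results of these data known. Sequences named are the most-read in each library and kind, the most widespread, those with at least 100 reads and no identical main BC, and those at the limits, others are said to be chosen after their values were seen, and the rarely read mESC members are not shown. The code was tested on simulated data. The tools were pandas 2.3.3, SciPy 1.17.1, NumPy 2.4.6 and edlib under Python 3.11.15. Single-cell data were not analysed here.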

Additional observations from a re-analysis of the deposited data

How the results depend on the processing

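No member of the G/T-rich libraries matched a main BC of the balanced libraries in any of 30 alternatives, 1 of which allowed up to 2 edits and 1 up to 1 edit, while the others counted identical sequences. Those that leave out libraries, reads or main BCs could not have raised a count of 0. The 2 identical members of the balanced libraries stayed at 2 in 29 of 30 alternatives, and leaving out PWK × B6 embryo #1, which holds 1 of these BCs, gave 1 (range 1 to 2 over single libraries left out). With only sequences of at least 10 reads, 18 balanced sequences remained instead of 194, and with G plus T of 75% or more, 25 G/T-rich sequences instead of 16. That limit takes in main BCs and turned the difference between F1 and B6J F0 embryos to -10.3 percentage points (exact permutation p = 0.5). At the limit of 80%, that difference with 1 library left out ranged from 0.0143 points without F1 #2 to 0.0940 without F1 #1, and the difference of medians was 0.0253. The difference between PWK × B6 embryos and mESC lines was turned to -1.81 points with the reads under 1% as denominator, and ranged from 0.0555 to 0.0697 points with 1 library left out. It was 0.0389 with G plus T under 60% and 0.0354 with at least 10 reads, both past the threshold (exact permutation p = 0.0182 and 0.0364). Without line #6–10 it was 0.0697 and without line #13–25 0.0555, each with exact permutation p = 0.1, the smallest possible there. That denominator was 152 and 626 reads in the lines and 1182 to 3298 in the embryos. After the data were seen, the share of recurring PWK × B6 sequences in 1 set was recomputed: it was 97.2% of 36 with at least 3 reads, 100% of 12 with at least 10, and 89.0% to 91.7% with 1 embryo left out. No paired analysis was possible because the numbers shared by groups only name embryos. Depth limits what was seen, as most members had few reads.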
